A study of Mus musculus with 8 samples.

Results

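BMP signalling of the hair cycle was followed here through 10 genes: the ligands Bmp2, Bmp4 and Bmp7, the receptor Bmpr1a, the antagonists Nog, Sostdc1 and Bambi, and the target genes Id1, Id2 and Id3. They were chosen by name, with earlier results of these data known, so their counts beside all tested probes are a description only. They were found through the accession of each array probe. This gave 12 probes of the 55681 on the array and 10 of the 21154 genes that could be named. RNA from the skin of female mice was measured on 8 Agilent arrays of 1 colour, in 4 groups of 2. The groups were DMBA-treated and untreated skin of CD109+/+ mice, which were wild-type FVB/N mice, and DMBA-treated and untreated skin of CD109-/- mice, in which the gene for the membrane protein CD109 is deleted and which were backcrossed onto FVB/N. DMBA, a polycyclic aromatic hydrocarbon that damages DNA, was given 24 h before RNA extraction, and the labels do not say whether the untreated skin received its solvent. The methods give the age for the tumour protocol, which used young female mice treated with DMBA on the shaved back, but whether the array mice had that age, and how many mice stand behind each array, is not given in the sources used here, and p-values therefore cover the spread from array to array alone. On the slide, 1 row held the 4 DMBA arrays and the other row the 4 untreated ones, so row and treatment cannot be told apart. Both genotype comparisons lie within a row. In each row, arrays labelled CD109+/+ were in columns 1 and 2 and those labelled CD109-/- in columns 3 and 4. Labelled genotype and slide column therefore cannot be told apart either.

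BMP ligands bind pairs of type I and type II receptors at the cell surface, which phosphorylate the receptor-activated Smads, and these enter the nucleus with Smad4 to switch on targets such as the Id genes. In skin, BMPs from the dermis and the fat layer hold hair follicle stem cells at rest, and antagonists such as noggin release this hold when a new hair begins to grow. Within the growing follicle, BMP signalling also drives cells of the hair matrix to form the hair shaft.

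The results below turn on Bmp4, Bmpr1a, Id1 and Id3, and the RefSeq promoter table used here (build GRCm38.p6) held entries for 4 of the 10 genes, among them Bmp4, Bmpr1a and Id3. The 250 bases before the transcript start are shown for these 4 genes, 5′ to 3′ on the strand of the gene, since they let the regulatory sequence be read beside the levels. Capitals mark matches to GGCGCC, a GC-rich run of the kind that BMP Smads bind, which reads the same on both strands.
Bmp4, chr14:46390670-46390919, minus strand: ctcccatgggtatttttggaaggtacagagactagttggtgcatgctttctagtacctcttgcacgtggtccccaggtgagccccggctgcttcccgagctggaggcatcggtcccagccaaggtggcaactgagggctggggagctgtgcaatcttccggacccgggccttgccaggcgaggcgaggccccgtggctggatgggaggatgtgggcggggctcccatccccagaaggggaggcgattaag
Bmpr1a, chr14:34502547-34502796, minus strand: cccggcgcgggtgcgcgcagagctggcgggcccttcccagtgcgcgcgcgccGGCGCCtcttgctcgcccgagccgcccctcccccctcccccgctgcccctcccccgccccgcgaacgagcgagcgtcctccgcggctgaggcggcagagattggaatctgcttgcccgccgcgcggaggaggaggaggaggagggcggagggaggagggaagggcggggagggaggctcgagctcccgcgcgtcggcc
Id2, chr12:25096093-25096342, minus strand: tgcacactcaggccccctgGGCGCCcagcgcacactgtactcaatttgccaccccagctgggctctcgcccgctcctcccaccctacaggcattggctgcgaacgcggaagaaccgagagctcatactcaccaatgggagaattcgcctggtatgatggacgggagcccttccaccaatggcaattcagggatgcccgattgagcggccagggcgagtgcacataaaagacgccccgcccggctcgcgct
Id3, chr4:136143572-136143821, plus strand: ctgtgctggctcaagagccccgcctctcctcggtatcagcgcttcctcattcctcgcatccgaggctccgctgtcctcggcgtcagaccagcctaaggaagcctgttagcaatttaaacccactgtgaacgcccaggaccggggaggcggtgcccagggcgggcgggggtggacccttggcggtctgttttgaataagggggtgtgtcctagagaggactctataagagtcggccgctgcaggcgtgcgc
GGCGCC occurred 1 time before Bmpr1a, starting 198 bases before the transcript start, and 1 time before Id2, starting 231 bases before it. It had 0 matches in the windows of Bmp4 and Id3, and it was present in 9.59% of all 32851 such windows in the table. A second Smad motif, CAGACA, searched on both strands, had 0 matches in the 4 windows and was present in 17.1% of all windows. The G and C content was 78.8% for Bmpr1a, 63.2% for Bmp4 and 62.8% for both Id2 and Id3. The table had no entry for Bmp2, Bmp7, Nog, Sostdc1, Bambi and Id1.

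All levels are log2 signals, the log2 intensity of a probe minus the log2 of the 75th percentile of its array, and the same probe was compared across arrays. After DMBA, Cd109, the deleted gene, had a log2 signal of 0.84 and 1.42 in CD109+/+ skin and of −8.06 and −7.70 in CD109-/- skin. Without DMBA, replicates 1 and 2 gave 2.06 and −6.49 under the label CD109+/+, and 1.66 and −8.11 under the label CD109-/-. It was therefore well above background on the library labelled untreated CD109-/- replicate 1 and not well above background on the library labelled untreated CD109+/+ replicate 2, against both labels. The main arrangement keeps the labels as deposited. Many comparisons are also given with these 2 arrays exchanged, so that the groups follow the Cd109 signal, and some without these 2 arrays. The exchanged groups were formed from a value measured on the arrays, so their p-values describe the separation of these arrays and are no independent evidence on genotype. The means of 11 markers of the growing hair follicle (hair matrix, hair shaft and inner root sheath) ran from 3.06 to 5.62 where Cd109 signal was low (4 arrays) and from −4.97 to −4.45 where it was high (4 arrays). Cd109 signal and follicle markers thus divide the 8 arrays in the same way and cannot be told apart, and in whole skin more cells of a type and more RNA per cell cannot be told apart either.

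Bambi, a pseudoreceptor that blocks BMP and TGF-β receptors, was not well above background on any of the 8 arrays and was not tested. The other 9 genes were well above background on all 8 arrays with the probe used. With the labels as deposited, 0 of 9 passed an adjusted p under 0.05 in any of the 7 comparisons made with limma. After DMBA, all 9 had positive log2 fold changes for CD109-/- over CD109+/+ skin, from 0.35 to 1.37 with a median of 0.64, while the median of all 36913 tested probes was 0.12. Both DMBA-treated CD109-/- arrays had a lower 75th percentile (455 and 382) than any other array (554 to 626). Array intensity and genotype therefore cannot be told apart after DMBA. Median centring moved the median of all tested probes to −0.26 and Bmp7 to −0.03. In that comparison 0.0813% of the tested probes passed. In limma, 4 of the 9 genes had an unadjusted p under 0.05, as did 26.1% of all tested probes. In the methods' t-test 2 did, and 0 passed after adjustment. The share of all tested probes in that t-test is not given here. Both CD109-/- arrays lay above both CD109+/+ arrays for 8 of 9 genes, where 41.7% of all tested probes did so in that direction and 29.8% in the other. Bmp7 was the exception.

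**Figure D1:**
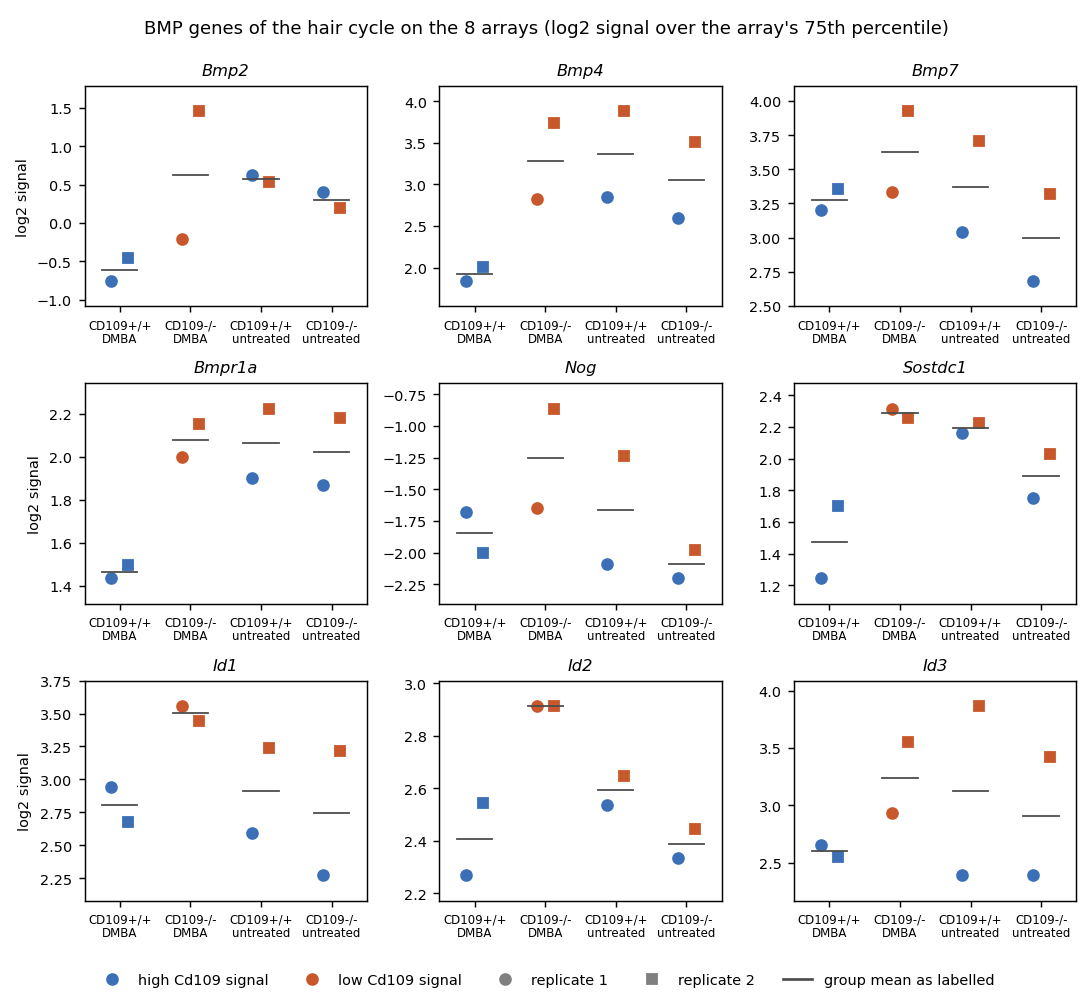
Log2 signal (vertical axis) of the 9 measured BMP genes on each of the 8 arrays, by labelled group (horizontal axis); circles are replicate 1, squares replicate 2, lines group means of 2 arrays, and colour gives the Cd109 signal of the array. Id1 lay at 3.21 or more on the 4 arrays with low Cd109 signal and at 2.94 or less on the 4 with high signal, and Id3 gave 3.87 and 3.42 on the 2 untreated arrays with low signal and 2.39 on both with high signal.

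Among the ligands, Bmp4 and Bmp2 had larger fold changes between the genotypes after DMBA than Bmp7. Bmp4, made by the dermal papilla and the dermis around the follicle, had a log2 signal of 1.84 and 2.00 in DMBA-treated CD109+/+ skin and of 2.83 and 3.74 in DMBA-treated CD109-/- skin. Untreated skin gave 2.85 and 3.88 under the label CD109+/+ and 2.60 and 3.51 under the label CD109-/-. The DMBA-treated groups did not overlap, and within both untreated groups replicate 2, the array with low Cd109 signal, was the higher. The log2 fold change of CD109-/- over CD109+/+ skin after DMBA was 1.37 ± 0.50 (SE; adjusted p = 0.17 as labelled and 0.038 exchanged). In untreated skin, it was −0.31 ± 0.50 as labelled, 0.66 ± 0.51 without the 2 arrays in doubt and 0.97 ± 0.32 with them exchanged (adjusted p = 1, 0.62 and 0.11). Averaged over treatments, the exchanged arrangement gave 1.17 ± 0.23 (adjusted p = 0.0185), against 0.53 ± 0.36 as labelled (adjusted p = 0.55). A second Bmp4 probe was not well above background on any array.

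Bmp2, a ligand whose level in the skin outside the follicle rises and falls with the hair cycle, had a log2 signal of −0.76 and −0.46 in DMBA-treated CD109+/+ skin and of −0.20 and 1.45 in DMBA-treated CD109-/- skin. The untreated arrays lay close together, at 0.63 and 0.53 for those labelled CD109+/+ and at 0.41 and 0.20 for those labelled CD109-/-. Unlike Bmp4, Bmp2 did not divide the untreated arrays by Cd109 signal, and its widest gap between replicates was in DMBA-treated CD109-/- skin. The log2 fold change after DMBA was 1.23 ± 0.51 (SE; adjusted p = 0.20 as labelled and 0.13 exchanged), and 0.40 without CD109-/- replicate 2, the array with the lowest 75th percentile, an intensity of 382.

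Bmp7, a ligand expressed in the epidermis and the follicle, had a log2 signal of 3.20 and 3.35 in DMBA-treated CD109+/+ skin and of 3.33 and 3.92 in DMBA-treated CD109-/- skin. Untreated arrays gave 3.04 and 3.70 for those labelled CD109+/+ and 2.68 and 3.32 for those labelled CD109-/-. The groups overlapped after DMBA, and replicate 2 was the higher array in each of the 4 groups. The log2 fold change after DMBA was 0.35 ± 0.35 (SE; adjusted p = 0.53 as labelled and 0.34 exchanged), and −0.03 when the arrays were centred on their medians, which moved the median of all tested probes to −0.26.

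Bmpr1a, the type I receptor that the hair matrix needs to form a hair shaft, had a log2 signal of 1.43 and 1.49 in DMBA-treated CD109+/+ skin and of 2.00 and 2.15 in DMBA-treated CD109-/- skin. Untreated arrays gave 1.90 and 2.22 for those labelled CD109+/+ and 1.87 and 2.18 for those labelled CD109-/-. Both DMBA-treated CD109+/+ arrays lay below the other 6 arrays, and the 4 arrays with low Cd109 signal (2.00 to 2.22) all lay above the 4 with high signal (1.43 to 1.90). The log2 fold change after DMBA was 0.61 ± 0.20 (SE; adjusted p = 0.14) as labelled and 0.61 ± 0.12 (adjusted p = 0.028) with the 2 arrays exchanged. In untreated skin, the exchanged arrangement gave 0.32 ± 0.12 (adjusted p = 0.14), and averaged over treatments it gave 0.46 ± 0.08 (adjusted p = 0.016), against 0.29 ± 0.14 as labelled (adjusted p = 0.45).

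Neither Nog nor Sostdc1 passed as labelled after DMBA, and both had positive fold changes, while 10 of 11 other antagonists and modulators had negative ones (median −0.77, 0 passing). Nog, which encodes noggin, a secreted protein that binds BMP2 and BMP4, had a log2 signal of −1.68 and −2.00 in DMBA-treated CD109+/+ skin and of −1.65 and −0.87 in DMBA-treated CD109-/- skin. Untreated skin gave −2.09 and −1.24 under the label CD109+/+ and −2.20 and −1.98 under the label CD109-/-. The gap between the nearest arrays of the DMBA-treated groups was small beside the spread within them, and the log2 fold change was 0.59 ± 0.38 (SE; adjusted p = 0.35 as labelled and 0.24 exchanged). Without CD109-/- replicate 2, it was 0.19.

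Sostdc1, a secreted inhibitor of BMP and Wnt signalling, had a log2 signal of 1.25 and 1.70 in DMBA-treated CD109+/+ skin and of 2.31 and 2.26 in DMBA-treated CD109-/- skin. On the untreated arrays, it was 2.16 and 2.22 for those labelled CD109+/+ and 1.75 and 2.03 for those labelled CD109-/-. The DMBA-treated CD109+/+ arrays were the lowest of the 8, and the 2 DMBA-treated CD109-/- arrays the highest. Of the 9 genes after DMBA it had the smallest adjusted p as labelled (0.11, at 0.81 ± 0.21, SE, on the log2 scale), and it passed at 0.048 when the 2 arrays were exchanged. A second Sostdc1 probe ran the same way after DMBA, at 1.26 and 1.56 against 2.05 and 1.65. On that probe the DMBA-treated CD109-/- arrays were not the 2 highest. Its untreated arrays gave 2.05 and 2.10 under the label CD109+/+ and 1.73 and 1.88 under the label CD109-/-.

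Of the target genes, Id1 and Id3 separated the arrays by Cd109 signal in both treatments. The Id proteins are inhibitors of helix-loop-helix transcription factors, and their genes are direct targets of BMP Smads. Id1 had a log2 signal of 2.94 and 2.67 in DMBA-treated CD109+/+ skin and of 3.56 and 3.44 in DMBA-treated CD109-/- skin. It was 2.59 and 3.24 on the untreated arrays labelled CD109+/+ and 2.27 and 3.21 on those labelled CD109-/-. The 4 arrays with low Cd109 signal all lay above the 4 with high signal. The log2 fold change after DMBA was 0.69 ± 0.37 (SE; adjusted p = 0.28) as labelled and 0.69 ± 0.16 (adjusted p = 0.039) with the 2 arrays exchanged. In untreated skin, it was −0.17 ± 0.37 as labelled (adjusted p = 1), 0.62 ± 0.26 without the 2 arrays in doubt (adjusted p = 0.41) and 0.80 ± 0.16 with them exchanged (adjusted p = 0.042).

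Id3 had a log2 signal of 2.65 and 2.55 in DMBA-treated CD109+/+ skin and of 2.93 and 3.55 in DMBA-treated CD109-/- skin. On the untreated arrays, it was 2.39 and 3.87 for those labelled CD109+/+ and 2.39 and 3.42 for those labelled CD109-/-. Id3 had the widest gap within the untreated groups of the 9 genes, with the array of low Cd109 signal the higher in both. After DMBA, the log2 fold change was 0.64 ± 0.57 (SE; adjusted p = 0.49 as labelled, and 0.11 exchanged). In untreated skin, it was −0.22 ± 0.57 as labelled (adjusted p = 1), 1.04 ± 0.38 without the 2 arrays in doubt (adjusted p = 0.37) and 1.26 ± 0.25 with them exchanged (adjusted p = 0.039).

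Id2 set DMBA-treated CD109-/- skin apart from the other 3 groups. Its log2 signal was 2.27 and 2.54 in DMBA-treated CD109+/+ skin and 2.91 on both arrays of DMBA-treated CD109-/- skin. On the untreated arrays, it was 2.54 and 2.65 for those labelled CD109+/+ and 2.33 and 2.44 for those labelled CD109-/-. The DMBA-treated CD109-/- arrays were the highest of the 8. The log2 fold change of CD109-/- over CD109+/+ skin after DMBA was 0.51 ± 0.17 (SE; adjusted p = 0.14 as labelled and 0.066 exchanged).

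In untreated skin as labelled, the log2 fold changes of CD109-/- over CD109+/+ skin were negative for all 9 genes, from −0.43 for Nog to −0.04 for Bmpr1a, with a median of −0.28, and the median of all tested probes was −0.02. In that comparison 0 of the 9 had an unadjusted p under 0.05 in limma or in the methods' t-test, and 0.00542% of all tested probes passed. Averaged over treatments as labelled, the fold changes ranged from −0.01 for Bmp7 to 0.53 for Bmp4, with 0 of 9 at an unadjusted p under 0.05 by either test and 0.00271% of all tested probes passing. Each untreated group as labelled held 1 array of high and 1 of low Cd109 signal. With the 2 arrays exchanged, 8 of 9 fold changes were positive, all but that of Bmp2 (−0.16 ± 0.52, SE; adjusted p = 0.86), and the median was 0.54. Without the 2 arrays, each untreated group had 1 array, which was assumed to vary like the others, and 6 of 9 were positive, with 0 passing, 0 at an unadjusted p under 0.05 and 0% of all tested probes passing.

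With the 2 arrays exchanged, 4 of 9 genes passed as higher in CD109-/- skin after DMBA (Bmp4, Bmpr1a, Sostdc1 and Id1), where 13.1% of the 37139 tested probes passed in that direction. The exchange moved untreated arrays only, so the fold changes after DMBA stayed as labelled. Only the shared errors and the adjustment over all probes changed. The SE went from 0.198 to 0.117 for Bmpr1a, and from 0.210 to 0.215 for Sostdc1. In untreated skin 2 of 9 passed as higher (Id1 and Id3), beside 5.12% of all probes, and averaged over treatments 4 of 9 did (Bmp4, Bmpr1a, Id1 and Id3), beside 16.6%. The number that passed as lower was 0 in each of the 3. The share of all probes that passed as higher or lower depended on the scaling. After DMBA, 4848 probes were higher and 2820 lower, against 2710 and 8335 with median centring, which left 1 of the 9 genes (Bmp4), and 3253 and 3383 with quantile normalization. Averaged over treatments, 6169 were higher and 5413 lower, against 3660 and 8000 with median centring, and in untreated skin 1903 and 1425, against 2252 and 2812 with normexp background. These calls were open to single arrays. After DMBA, 0 passed when any 1 array was left out other than DMBA-treated CD109-/- replicate 1, without which 4 did (Bmp2, Bmp4, Bmpr1a and Id3). In untreated skin, 0 passed without any 1 of the 4 untreated or of the 2 DMBA-treated CD109+/+ arrays, and 3 without either DMBA-treated CD109-/- array. Averaged over treatments, Id1 passed in all 8 such fits, while Bmp4 and Id3 each passed in 4 of them and Bmpr1a in 3. The averaged count was 1 without untreated CD109-/- replicate 1, untreated CD109+/+ replicate 2 or either DMBA-treated CD109+/+ array, and it was 6 without DMBA-treated CD109-/- replicate 1.

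**Figure D2:**
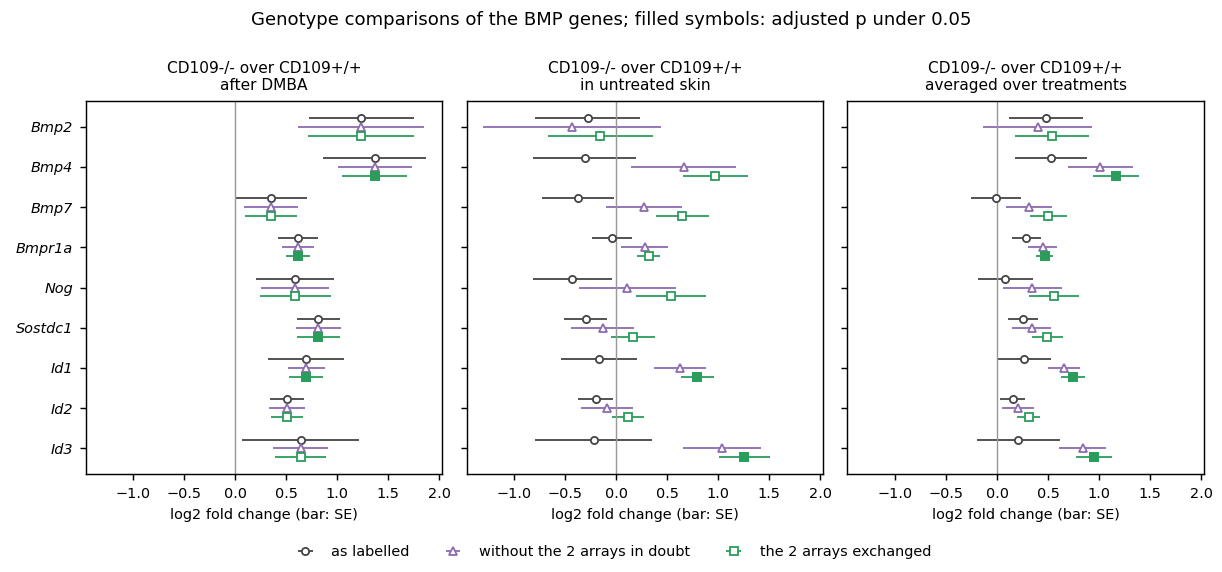
Log2 fold change of CD109-/- over CD109+/+ skin (horizontal axis; bars are SE from limma) for 9 BMP genes after DMBA, in untreated skin and averaged over treatments, with the labels as deposited, without the 2 arrays in doubt, and with these exchanged; filled symbols passed an adjusted p under 0.05. The values after DMBA are the same in all arrangements, since the 2 arrays are untreated, while in untreated skin all 9 values lay below 0 as labelled and 8 of 9 above 0 with the 2 arrays exchanged.

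Whether DMBA itself moved these genes was asked within each genotype. With the labels as deposited, DMBA over untreated gave log2 fold changes from −1.44 to −0.09 in CD109+/+ skin, negative for all 9 genes, and from 0.05 to 0.83 in CD109-/- skin, positive for all 9. In CD109+/+ skin 0 of 9 passed, 3 had an unadjusted p under 0.05 and 1 did in the methods' t-test. Of all tested probes, 0.179% passed and 11.4% had an unadjusted p under 0.05 in limma. In CD109-/- skin 0 of 9 passed, and 1 had an unadjusted p under 0.05 by either test, where 0% of all tested probes passed and 14.6% had such a p in limma. For the difference between these effects 0 of 9 passed, with 2 at an unadjusted p under 0.05 by either test, where 0% of all tested probes passed and 15.9% had such a p in limma. Both DMBA effects use 1 array whose Cd109 signal opposed its label, and with these exchanged 4 of 9 effects were positive in CD109+/+ skin and 6 of 9 in CD109-/- skin, with 0 passing in either (2 and 0 at an unadjusted p under 0.05). Of all tested probes, 3.5% and 0.0215% then passed, and 22.1% and 17.5% had an unadjusted p under 0.05. Averaged over genotypes, where exchanging the arrays does not change the fold, the effects ranged from −0.60 for Bmp4 to 0.33 for Nog and 0 of 9 passed, with 0 at an unadjusted p under 0.05 as labelled and 0.0298% of all tested probes passing. Exchanging the arrays narrowed the errors of most of the 9 genes, but not those of Bmp2 and Sostdc1. Then 0 of 9 passed (1.58% of all tested probes did). An unadjusted p under 0.05 was reached by 3 (Bmp4, Bmpr1a and Id1), as by 21.2% of all tested probes. The 4 DMBA arrays did not all lie on one side of the 4 untreated arrays for any of the 9 genes, where 3.78% of tested probes lay higher and 2.38% lower on all 4.

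The separation by Cd109 signal ran along with marker lists of other cell types. Bmpr1a, Id1 and Id3 (3 of 9) lay higher on all 4 arrays with low Cd109 signal than on all 4 with high signal, where 14.8% of tested probes did, and 0 of 9 lay lower on all 4, where 12.7% did. All 11 measured markers of the growing follicle, such as Krt71 of the inner root sheath, lay higher on those 4 arrays, as did 5 of 5 melanocyte markers (list means from 2.72 to 3.53 against −0.56 to −0.32) and 4 of 5 proliferation markers. Of 6 markers of the dermal papilla, whose cells make much of the Bmp4 and noggin of the follicle, 2 lay higher and 2 lower. Their list means ran from −1.72 to −1.05 against −2.41 to −2.31 and did not overlap. All 5 adipocyte markers and all 4 muscle markers lay lower on the same arrays, with list means from 2.39 to 3.27 against 3.72 to 4.57 and from 3.75 to 6.03 against 6.69 to 7.29, and so did all 4 macrophage markers, from 2.81 to 3.96 against 4.19 to 4.97. For the interfollicular epidermis, 0 of 6 markers lay on one side. Of 7 markers of the resting follicle and bulge, 3 lay higher and 1 lower, and the list means overlapped (3.07 to 3.45 against 2.23 to 3.18). The part that these shifts play in the levels of the BMP genes was not tested.

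**Figure D3:**
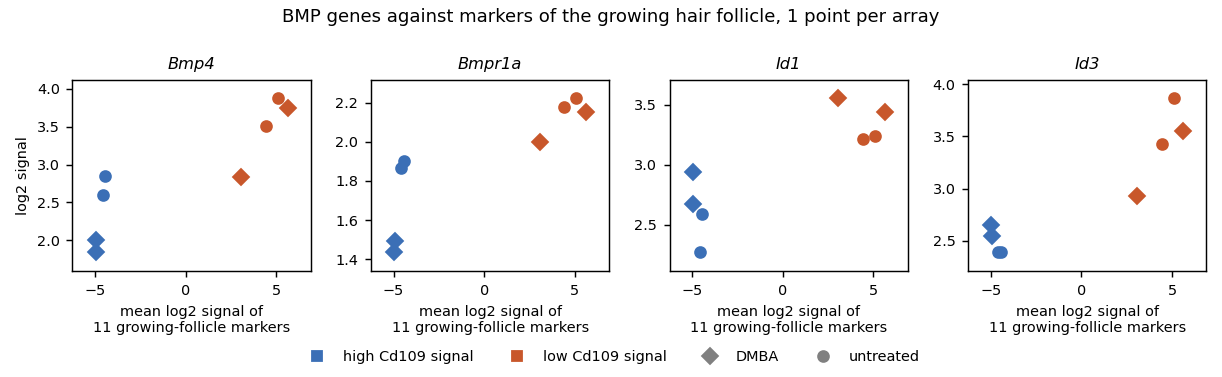
Log2 signal of Bmp4, Bmpr1a, Id1 and Id3 (vertical axes) against the mean log2 signal of 11 markers of the growing hair follicle (horizontal axis), 1 point per array; diamonds are DMBA-treated and circles untreated skin, and colour gives the Cd109 signal. The arrays formed 2 separate sets, with marker means between 3.06 and 5.62 and between −4.97 and −4.45, so no correlation over all arrays is given.

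Among arrays with high Cd109 signal, Bmp4 and Bmpr1a were lower on the 2 DMBA arrays than on the 2 untreated arrays (Bmp4 at 1.84 and 2.00 against 2.85 and 2.60). Id1 ran the other way (2.94 and 2.67 against 2.59 and 2.27), and so did Id3 (2.65 and 2.55 against 2.39 on both). In limma with the 2 arrays exchanged, DMBA over untreated in CD109+/+ skin was −0.80 ± 0.32 for Bmp4, −0.42 ± 0.12 for Bmpr1a and 0.38 ± 0.16 for Id1 (SE; adjusted p = 0.22, 0.11 and 0.25), and none of these passed.

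The patterns of the 9 genes over the 8 arrays were set against those of 16763 other named genes by Pearson's r, as a description only, since all arrays lay on 1 slide and fell into the 2 sets above. Bmp4 was most like Dusp8, Fzd3 and Grik3 (r = 0.99 each), and Bmpr1a most like Rarg, Lingo1 and Mbtd1 (r = 0.99 each). For Bmp2 they were D230025D16Rik, Alox12 and Tshz1 (r from 0.97 to 0.99), for Bmp7 Serpinb11, Rpf2 and Mcts2 (0.98 to 0.99), for Nog Fndc11, Ttc4 and Fads3 (0.97 each) and for Sostdc1 Rassf7, Adgrf4 and Shroom4 (0.98 each). Id1 was most like Cpsf4l, B130034C11Rik and Klhl1 (0.97 to 0.99), Id2 like Cdk5r1, Muc15 and Cebpb (0.97 to 0.98) and Id3 like Nras, Zfat and Jmjd7 (0.99 each). Among the 36 pairs of the 9 genes themselves, Bmp4 and Bmpr1a were the most alike (r = 0.97) and Bmp2 and Id1 the least (r = 0.16).

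The other 44 genes of the pathway gave 42 that were tested, and with the labels as deposited 0 of 42 passed in any of the 7 comparisons. After DMBA 16 of 42 had an unadjusted p under 0.05, where 26.1% of all tested probes did, and 8 of 42 did in the methods' t-test. The smallest p of each role list in that comparison belonged to the ligand Gdf5 (log2 fold change 2.65, adjusted p = 0.13), the type II receptor Acvr2b (1.08, 0.10), the modulator Fstl1 (−0.65, 0.17), the ubiquitin ligase Smurf1 (−0.82, 0.12) and the target Gata3 (1.47, 0.13). With the 2 arrays exchanged, 9 of 42 passed as higher in CD109-/- skin after DMBA and 5 as lower (13.1% and 7.59% of all tested probes). Averaged over treatments, 11 were higher and 10 lower (16.6% and 14.6% of all probes), and in untreated skin 4 were higher and 2 lower (5.12% and 3.84%).

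Target genes that passed were all higher, and most antagonists that passed were lower, in the exchanged arrangement averaged over treatments. Of 7 other target genes, 5 were higher and 0 lower, where 16.6% of all tested probes passed as higher and 14.6% as lower. They were Msx1 and Msx2, homeobox genes of the hair matrix, Id4, Dlx3, which acts in hair shaft formation, and Gata3, a factor of the inner root sheath. Msx2 had a log2 signal of −1.69 and −1.56 in DMBA-treated CD109+/+ skin and of 2.23 and 3.85 in DMBA-treated CD109-/- skin. On the untreated arrays, it was −1.58 and 3.83 for those labelled CD109+/+ and −1.72 and 3.45 for those labelled CD109-/-. The fold change averaged over treatments was 4.98 ± 0.35 on the log2 scale for Msx2 and 3.47 ± 0.20 for Msx1 (SE; adjusted p = 0.0025 and 0.0019). For Id4 it was 1.22 ± 0.19 and for Dlx3 1.20 ± 0.19 (adjusted p = 0.012 and 0.013). Several of these genes belong to the growing follicle itself, whose markers divide the arrays in the same way.

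Of 11 other antagonists and modulators, 7 were lower and 1 higher in the same comparison, where 14.6% of all tested probes passed as lower and 16.6% as higher. Grem1, which encodes gremlin 1, an antagonist of BMP2 and BMP4 made by dermal fibroblasts, had a log2 signal of 1.31 and 1.35 in DMBA-treated CD109+/+ skin and of −0.89 and −1.28 in DMBA-treated CD109-/- skin. It was 1.76 and −0.66 on the untreated arrays labelled CD109+/+ and 1.75 and −0.49 on those labelled CD109-/-. Every array with low Cd109 signal lay below every array with high signal, and the log2 fold change averaged over treatments was −2.37 ± 0.12 (SE; adjusted p = 0.0011). It was −0.69 ± 0.11 for Twsg1 and −1.49 ± 0.25 for Chrdl1, which encodes a chordin-like BMP binding protein (adjusted p = 0.013 and 0.0145). Fibroblast markers gave list means from 6.18 to 6.68 on the arrays with low and from 6.45 to 6.81 on those with high Cd109 signal, with 1 of 6 lower on all 4.

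Bmper, a secreted modulator that binds BMPs, was the 1 that was higher averaged over treatments (0.74 ± 0.16, SE; adjusted p = 0.024). It was also the 1 of 42 that passed for DMBA over untreated in CD109+/+ skin with the arrays exchanged, at 1.59 ± 0.23 (adjusted p = 0.031), where 2.29% of all tested probes passed as higher. Its log2 signal was −1.45 and −1.23 on the 2 untreated arrays with high Cd109 signal, and between −0.18 and 0.46 on the other 6. After DMBA the direction was the opposite, with means of 0.25 in CD109+/+ and 0.07 in CD109-/- skin.

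Of 8 Smads and their inhibitors, 3 were higher and 1 lower averaged over treatments with the arrays exchanged. Of all tested probes, 16.6% passed as higher and 14.6% as lower, and the receptor and ligand counts below did not exceed these shares. The inhibitory Smads, which BMP and TGF-β signals switch on and which then damp the receptors, gave 1.64 ± 0.37 for Smad6 and 1.12 ± 0.29 for Smad7 (SE; adjusted p = 0.025 and 0.037). Smad5, a receptor-activated Smad of the BMP branch, gave 0.49 ± 0.11 and Smurf1, which marks such Smads for degradation, −0.55 ± 0.12 (adjusted p = 0.026 and 0.025). Of 8 other receptors and co-receptors, 1 was higher and 1 lower, Acvr2b at 0.73 ± 0.13 and the endothelial receptor Acvrl1 at −0.82 ± 0.18 (adjusted p = 0.017 and 0.024), and 3 of 4 endothelial markers were lower on all 4 arrays with low Cd109 signal. Of 8 other ligands, Bmp8a was higher at 1.56 ± 0.36 and Gdf10 lower at −0.98 ± 0.27 (adjusted p = 0.027 and 0.04).

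**Figure D4:**
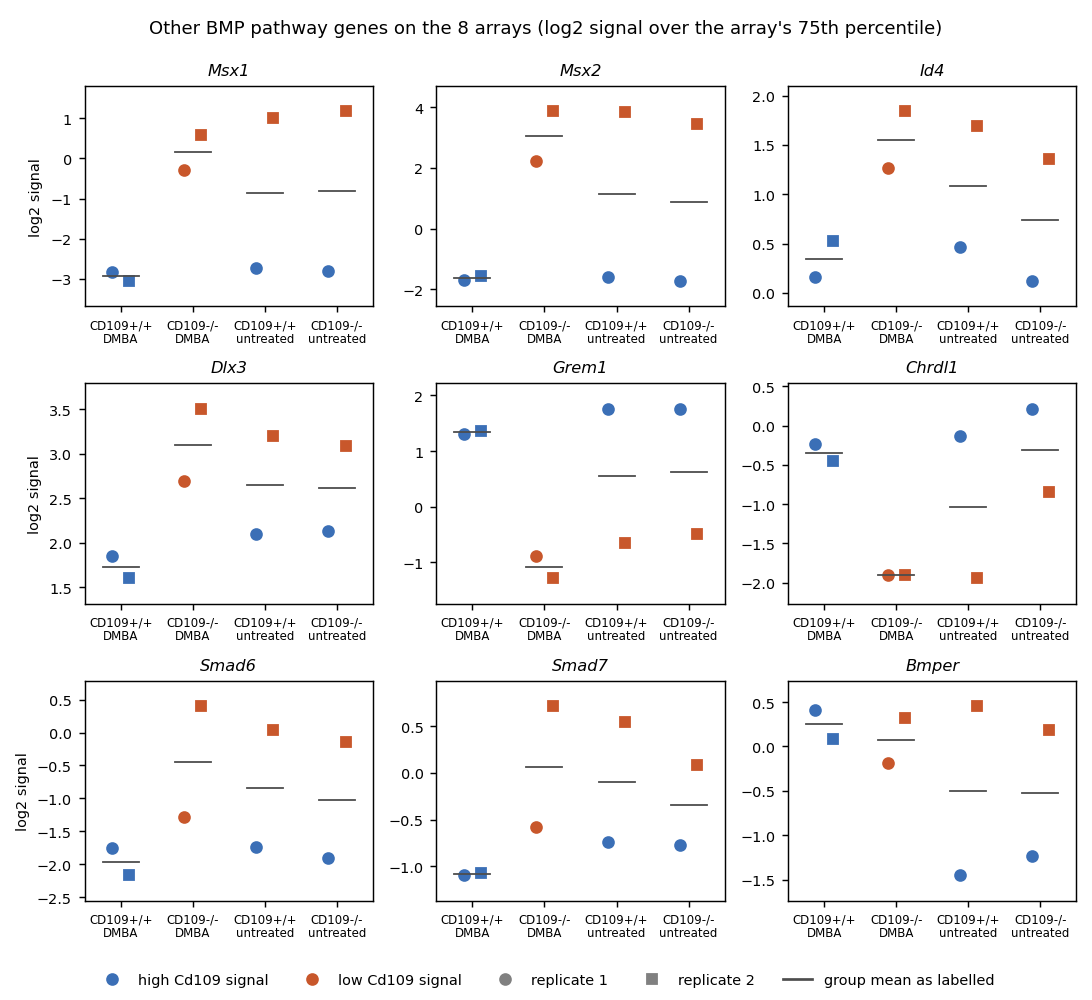
Log2 signal (vertical axis) of 9 other genes of the BMP pathway on each of the 8 arrays by labelled group (horizontal axis), with symbols as in the plot of the 9 BMP genes. Msx1, Msx2, Id4, Dlx3, Smad6 and Smad7 were higher, and Grem1 and Chrdl1 lower, on the 4 arrays with low Cd109 signal, and Bmper was lowest, at −1.45 and −1.23, on the 2 untreated arrays with high signal.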

How the data were processed

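RNA from whole skin was labelled with 1 dye and hybridized to Agilent mouse arrays on 1 slide, and the authors read the spots with Agilent Feature Extraction 11.5.1.1. The intensities used here are linear, background-subtracted and corrected within the array, but not normalized between arrays. The deposited value table held these intensities times 1 constant per array, from 1.92 to 3.39. How the constants were set is not known. Control spots and spots marked as outliers were left out, spots of a probe were averaged, and 55458 of 55681 probes were kept. The log2 of each intensity minus that of the array's 75th percentile (382 to 626) was taken, and the number of arrays limits the precision. Of the spots, 63.6% to 67.0% per array lay well above background and 0 were saturated. Probes were named through RefSeq accessions (28026 of 29796 matched). Tests took probes whose signal passed the background flag on both arrays of 1 or more groups, and a gene is given by its brightest tested probe. Groups followed the labels. R 4.3.3 with limma 3.58.1 was fitted to all 8 arrays with 1 mean per group, and p-values were adjusted by Benjamini-Hochberg over all tested probes. The methods' t-test, with analysis of variance for effects over both factors, was an alternative. The script was tested on simulated data. Named genes were all 10 members, Cd109, up to 4 other genes per role that passed (where none did, the gene of smallest p) and the 3 most alike by r. The members and lists were chosen with earlier results of these data known. The authors' own comparisons were not used. Of the pathway list, 1 gene that entered the counts is not reported here.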

Additional observations from a re-analysis of the deposited data

Results flagged for a closer look

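Sostdc1 drew attention because its array values after DMBA lay on opposite sides of the untreated ones in the genotypes, with no effect passing the test (log2 fold changes of −0.72 in CD109+/+ and 0.40 in CD109-/- skin, adjusted p = 0.31 and 0.42). As labelled, every pair of arrays had DMBA lower in CD109+/+ skin and higher in CD109-/- skin, and the difference of the DMBA effect (CD109-/- minus CD109+/+) was 1.12 ± 0.30 on the log2 scale (SE; limma's adjusted p = 0.27). With the 2 arrays exchanged the same held for every pair, with a difference of 0.65 ± 0.30 (adjusted p = 0.28). The test of the difference did not pass in either arrangement. A second Sostdc1 probe overlapped between DMBA-treated (2.05 and 1.65) and untreated (1.73 and 1.88) CD109-/- skin. Groups of 2 arrays are too small for a test of outlying samples.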

How the results depend on the processing

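As labelled, the number of BMP genes that passed stayed at 0 in all 7 comparisons under every alternative other than those named here, including every fit without 1 array. The unadjusted methods' t-test gave 2 after DMBA, 1 for DMBA in either genotype and 2 for the difference, and exchanging the 2 arrays gave 4 after DMBA, 2 in untreated skin and 4 averaged over treatments. Of the other pathway genes, the unadjusted t-test gave 8 after DMBA, 5 for DMBA in CD109+/+ skin and 2 for the difference. It gave 3 for genotype averaged and 4 for DMBA averaged. Exchanging gave 14, 6 and 21 for genotype after DMBA, in untreated skin and averaged, and 1 for DMBA in CD109+/+ skin. The share of all tested probes in the unadjusted t-test is not given here, so its counts cannot be set against that share. Deviations of same-numbered arrays from their group means had correlations from −0.08 to 0.73. The highest was between the 2 untreated groups, where replicate 1 was the array with high Cd109 signal in both. DMBA-treated CD109-/- skin gave 0.54 with untreated CD109+/+ and 0.49 with untreated CD109-/- skin. The labels do not say whether the numbers pair samples. With the replicate number as a block, 1 other pathway gene passed after DMBA and no call among the BMP genes changed.

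In untreated skin, the fold changes that turned positive without the 2 arrays in doubt were 0.66 for Bmp4, 0.28 for Bmp7, 0.28 for Bmpr1a, 0.11 for Nog, 0.62 for Id1 and 1.04 for Id3, and with the arrays exchanged 0.97, 0.65, 0.32, 0.54, 0.80 and 1.26, with 0.17 for Sostdc1 and 0.11 for Id2. Leaving out 1 array gave −0.83 to 0.21 for Bmp4, −0.20 to 0.12 for Bmpr1a, −0.64 to 0.30 for Id1 and −0.96 to 0.52 for Id3. Averaged over treatments, Bmp7 (−0.01 as labelled) turned to 0.045 with quantile normalization, 0.056 with the deposited value table, 0.31 without the 2 arrays and 0.50 with them exchanged, Nog (0.08) to −0.000232 with quantile normalization and −0.0897 with median centring, and Id2 (0.15) to −0.0162 with median centring. There, leaving out 1 array gave −0.18 to 0.15 for Bmp7, −0.13 to 0.29 for Nog and −0.16 to 0.58 for Id3. For DMBA averaged over genotypes, Id3 (−0.10) turned to 0.0152 without the 2 arrays and ranged from −0.46 to 0.27 without 1 array. Median centring turned Bmp7 after DMBA to −0.0295 and Bmpr1a in untreated skin to 0.00450. The cause was not tested.

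In fits of the exchanged arrangement, chosen after seeing the data, median centring left 1 BMP gene after DMBA and 1 in untreated skin, and normexp background gave 25 and 12 other pathway genes. Leaving out 1 array gave 0 to 4, 0 to 3 and 1 to 6 BMP genes and 1 to 24, 3 to 13 and 5 to 29 other pathway genes after DMBA, in untreated skin and averaged.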
